A study of Mus musculus with 4 samples.

Results

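The genes described are the matrix metalloproteinases (Mmp), the ADAMTS proteases (Adamts) and the tissue inhibitors of metalloproteinases (Timp), taken as every row of the expression table whose symbol is Mmp, Adamts or Timp followed by a number, with the Adamts-like (Adamtsl) genes left out. They number 46 of 21090 genes, namely 23 Mmp, 19 Adamts and 4 Timp genes. RNA sequencing (RNA-seq) covered 4 cell lines of mouse mammary tumor origin, each as 1 library. By the study's account all of them go back to the primary tumor of a mouse that also had lung metastasis and carried mutant alleles of Pik3ca (activating) and Trp53 (dominant-negative) with Cre recombinase under the MMTV promoter, which acts mainly in mammary epithelium. The controls (n = 2) are the parental line and a vector control line. The knockouts (n = 2) received a lentivirus with Cas9 and a guide RNA against exon 3 or exon 2 of S100a4, the gene of a small calcium-binding protein, with puromycin selection. Whether the lines are single clones is not stated. By its title the exon 2 knockout came from cells named 308 and each of the other 3 libraries from cells named 307.

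Matrix metalloproteinases are zinc enzymes that cut collagens, gelatins, proteoglycans and many other extracellular proteins. Most are made as inactive proenzymes and secreted, and the membrane-type members stay at the cell surface. The ADAMTS proteases are secreted relatives with thrombospondin repeats, among them enzymes that trim procollagens and enzymes that cut the large proteoglycans aggrecan and versican. TIMPs bind the active site of matrix metalloproteinases and block it. In mammary tumors both tumor cells and stromal cells make these proteins, which are known for their part in invasion and matrix remodelling.

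Levels are given as RPKM, that is reads divided by gene length and by the read total of the library, so they can be set side by side between genes. Comparisons between libraries also depend on the scaling chosen, and results with other scalings are given below. The read totals lay between 22472024 and 31235456 reads. S100a4 itself was at 3576 RPKM in parental cells, 4741 in vector control cells, 1136 with the exon 3 guide and 1105 with the exon 2 guide. Mean RPKM reached 1 for all 8 listed mesenchymal markers, for 2 of 6 luminal markers (Krt8 and Krt18) and for 1 of 5 basal markers (Cdh3). The T cell markers were at 0 in all libraries, the leukocyte marker Ptprc was at most 0.0101 RPKM, and of the neutrophil markers S100a9, Elane and Mpo were at 0. Of the adipocyte markers Adipoq and Plin1 were at 0, while Fabp4 was at 90.9 RPKM in parental cells and at 2.68 to 5.61 in the other 3 libraries. Of 5 macrophage markers in the table, Cd68 alone had mean RPKM of at least 1. Their summed RPKM was 3.92 to 5.01 in the controls and 12.02 to 13.8 in the knockouts. Nearly all of it was Cd68, at 3.36 to 4.92 in the controls and 11.5 to 13.2 in the knockouts. Csf1r, Itgam and Mrc1 were at most 0.173 RPKM and Lyz2 at most 0.597. No endothelial marker had mean RPKM of at least 1. A role of macrophages in the values of Mmp genes they are known to express, such as Mmp9, was not tested.

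The protease and inhibitor repertoire of these lines was dominated by a few genes. Of the 46 members, 10 were at 0 in all libraries, 18 were above 0 with mean RPKM below 1, and 18 had mean RPKM of at least 1 (7 Mmp, 8 Adamts and 3 Timp genes). The highest was Timp2, an inhibitor that also takes part in the activation of pro-Mmp2 by Mmp14 at the cell surface. Timp2 was at 420.5 RPKM in parental cells, 360.4 in vector control cells, 460.1 with the exon 3 guide and 566 with the exon 2 guide. Both knockouts thus lay above both controls, by 0.39 on the log2(RPKM + 1) scale (SE 0.298), a difference with an adjusted p of 0.487 in limma, and by 0.04 after correction of each library for GC content and length. Next came Mmp14, the membrane-anchored collagenase MT1-MMP, at 165 RPKM in parental cells, 178 in vector control cells, 134 with the exon 3 guide and 162 with the exon 2 guide. The knockouts lay just below the controls, by -0.21 on the log2 scale (SE 0.292, adjusted p 0.706 in limma), and by -0.41 after the GC content and length correction. Mmp2, the gelatinase that Mmp14 activates, was at 0.242 to 0.383 RPKM in the 4 libraries, on 12 to 19 reads each.

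**Figure D1:**
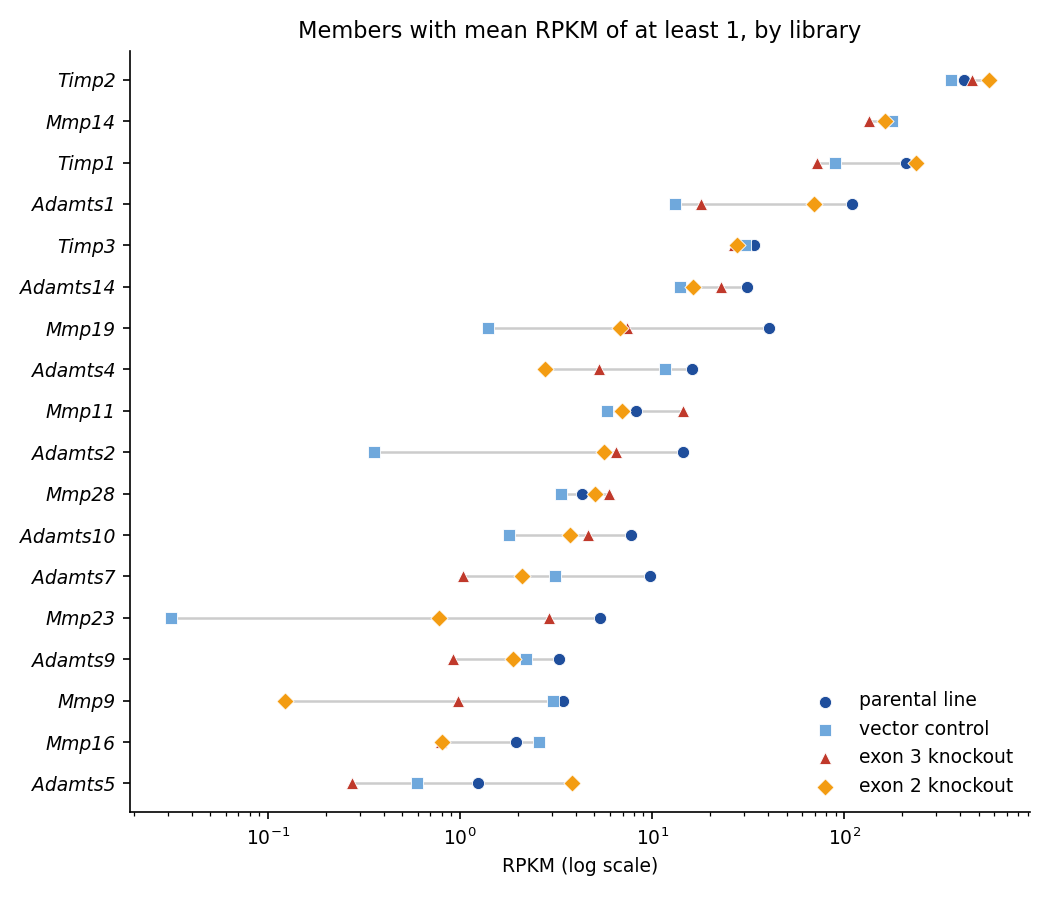
RPKM (horizontal axis, log scale) of the 18 Mmp, Adamts and Timp genes with mean RPKM of at least 1, ordered by mean, with 1 point per library and a grey line over their range. Timp2 and Mmp14 sit in a narrow range in all 4 libraries, Adamts4 and Mmp9 have both knockouts to the left of both controls, and the vector control (square) is far to the left for Mmp23, Adamts2 and Mmp19.

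The other inhibitors differed in their spread over the libraries. Timp3, a matrix-bound inhibitor that also acts on ADAM and ADAMTS enzymes, was at 33.98 RPKM in parental cells, 30.3 in vector control cells, 26.7 with the exon 3 guide and 27.8 with the exon 2 guide. Its values were slightly lower in both knockouts (log2 difference -0.23, SE 0.299, adjusted p 0.695 in limma). After the GC content and length correction the difference was -0.55. Timp1, a secreted inhibitor known to bind pro-Mmp9, was at 209 RPKM in parental cells, 90.0 in vector control cells, 72.1 with the exon 3 guide and 237 with the exon 2 guide. Timp1 was therefore high in parental cells and the exon 2 knockout and low in vector control cells and the exon 3 knockout, and the groups overlapped (log2 difference -0.06, SE 0.524, adjusted p 0.962 in limma). Timp4 was listed at 0 in all libraries.

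Summed over each family, Timp transcripts per length exceeded the proteases in every library. The summed RPKM of the Timp genes was 663 in parental cells, 481 in vector control cells, 559 with the exon 3 guide and 831 with the exon 2 guide. The Mmp genes summed to 233, 198, 169 and 185 RPKM in the same order, of which Mmp14 made up 70.9%, 90.1%, 79.6% and 87.5%. The Adamts genes summed to 195, 49.5, 60.5 and 108 RPKM, with Adamts1 at 56.0% in parental cells, 26.4% in vector control cells, 29.7% with the exon 3 guide and 64.7% with the exon 2 guide. The Mmp sum was lower in both knockouts than in both controls, while the Adamts and Timp sums overlapped between the groups. Without Mmp14 the Mmp sums were 67.8, 19.6, 34.5 and 23.1 RPKM in the same order of libraries, with both knockouts between the controls. The log2 difference between the groups in the Timp sum was 0.27, and -0.08 without Timp2. The ratio of the Timp sum to the sum of both protease families was 1.55 in parental cells, 1.94 in vector control cells, 2.44 with the exon 3 guide and 2.84 with the exon 2 guide. To the Mmp sum alone the ratio was 2.85, 2.43, 3.31 and 4.49 in the same order. These are sums of transcripts and not of active proteins, and they were given no test.

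**Figure D2:**
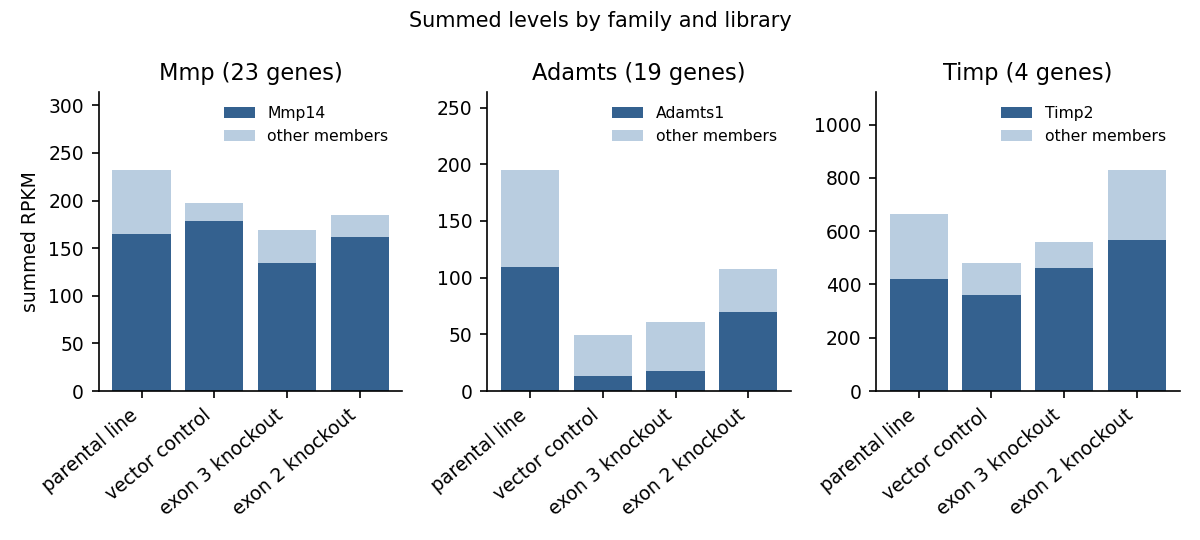
Summed RPKM (vertical axes, from 0, on a separate scale for each family) of the 23 Mmp, 19 Adamts and 4 Timp genes in each library, with the leading member in dark blue and all others in light blue. Mmp14 and Timp2 make up most of their family in each library, while the Adamts1 share is 56.0% and 64.7% in parental cells and the exon 2 knockout and under 30% in the other 2.

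Setting the knockouts against the controls asks whether the loss of S100a4 goes with other protease levels. Among the 18 members tested, 0 had an adjusted p under 0.05 in limma, on RPKM or with voom on the recovered reads, where 0.0184% of all 10871 tested genes did on RPKM, and 4 had an unadjusted p under 0.05, all lower in the knockouts. These were Adamts4, Mmp9, Adamts7 and Mmp16. The share of members lower at this unadjusted level was 22.2%, against 13.8% of all tested genes, and 0 were higher, against 5.32% (19.1% in both directions). Mmp9 and Mmp16 passed the filter of mean RPKM 1 only through the controls, with knockout means of 0.547 and 0.800 RPKM. The study had also picked both from these libraries, so this share is no independent evidence of a direction. With a robust prior in limma, 2 members, Adamts4 (adjusted p 0.0201) and Mmp9 (adjusted p 0.0465), and 285 of all genes passed. Both knockouts lay below both controls in 7 members (38.9%, against 31.2% of all tested genes) and above them in 2, Timp2 and Mmp28 (11.1%, against 21.9%). The difference was below 0 in 11 members (61.1%, against 55.0% of all tested genes). The median log2 difference was -0.11 over the 18 members and -0.08 over all tested genes, and after correction for GC content and length these medians were -0.29 and -0.08. An exact permutation test over 4 libraries cannot give a two-sided p under 0.333, so it was not used.

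Adamts4, an aggrecanase that also cuts versican and brevican, had the largest difference on the log2(RPKM + 1) scale among the members with unadjusted p under 0.05, whereas by the ratio of group means and with voom that of Mmp9 was larger. Its RPKM was 16.1 in parental cells, 11.7 in vector control cells, 5.27 with the exon 3 guide and 2.75 with the exon 2 guide. Both knockouts lay below both controls, and the control mean of 13.9 ± 3.16 (SD, n = 2) was 3.47 times the knockout mean of 4.01 ± 1.78 (SD, n = 2). The log2 difference was -1.60 (SE 0.371, adjusted p 0.105 in limma), and -1.84 after the GC content and length correction. The gene lies on chromosome 1 from 171250421 to 171260637 (GRCm38, plus strand).

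Mmp9, the gelatinase that cuts type IV collagen of basement membranes, showed the same order of groups. Its RPKM was 3.42 in parental cells (234 reads, 95% Wilson interval 3.01 to 3.88) and 3.03 in vector control cells (2.61 to 3.53, 169 reads). It was 0.971 with the exon 3 guide (0.737 to 1.28, 50 reads) and 0.122 with the exon 2 guide (0.0558 to 0.266, 6 reads). The controls were close to each other and both knockouts were well below them, with the exon 2 knockout lowest. The control mean of 3.23 ± 0.270 (SD, n = 2) was 5.90 times the knockout mean of 0.547 ± 0.601 (SD, n = 2). On the log2 scale the difference was -1.51 (SE 0.412, adjusted p 0.130 in limma), and -1.74 after the GC content and length correction. Mmp9 lies on chromosome 2 from 164940780 to 164955850 (GRCm38, plus strand). The intervals cover counting error only. On the log2(RPKM + 1) scale, Adamts4 and Mmp9 were the 2 members (11.1%) that were at least 2-fold lower in each of the 4 pairs of a knockout and a control, a property of 1.73% of all tested genes, and 0 members were 2-fold higher in each, against 0.267%. Their smallest pair differences on that scale were -1.01 and -1.03. After median ratio scaling 0 members met the threshold in all pairs, with group differences of -1.502 for Adamts4 and -1.44 for Mmp9, and after quantile normalization 0 did, with -1.33 and -1.25. In plain RPKM ratios, with nothing added to low values, 3 members (16.7%) were at least 2-fold lower in all pairs, namely Adamts4, Mmp9 and Mmp16, against 3.29% of all tested genes, and 0 were higher, against 0.423%. Of these, Mmp9 and Mmp16 passed the filter only through the controls.

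Mmp16, the membrane-anchored enzyme MT3-MMP, was at 1.95 RPKM in parental cells, 2.57 in vector control cells, 0.794 with the exon 3 guide and 0.805 with the exon 2 guide. The 2 knockouts were nearly equal and both below the controls, on 34 and 33 reads against 111 and 119 (log2 difference -0.85, SE 0.380, adjusted p 0.253 in limma). Mmp16 had the lowest coding GC content of the 18 members, 46.5% against a median of 57.5%, and after correction of each library for GC content and length the difference was -0.46. The study picked Mmp3, Mmp9 and Mmp16 from these same libraries, so their order here is no independent evidence of a direction.

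Among the other proteoglycan-cutting members, Adamts9 was lower in both knockouts and Adamts1 and Adamts5 overlapped between the groups. Adamts9, which cuts versican and aggrecan, was at 3.28 RPKM in parental cells, 2.19 in vector control cells, 0.919 with the exon 3 guide and 1.87 with the exon 2 guide (log2 difference -0.65, SE 0.396, adjusted p 0.381 in limma). Of its 5793 annotated coding bases, 590 also lie in exons of genes on the other strand. Whether counting used strand is not stated, so reads there cannot be assigned to 1 gene. Adamts5, the other main aggrecanase, was at 1.24 RPKM in parental cells, 0.592 in vector control cells, 0.275 with the exon 3 guide and 3.82 with the exon 2 guide. The 2 knockouts thus lay on opposite sides of both controls, an arrangement that Timp1 shared and that 7.88% of all tested genes had. Adamts7, known for cutting the cartilage protein Comp, was at 9.70 RPKM in parental cells, 3.11 in vector control cells, 1.03 with the exon 3 guide and 2.10 with the exon 2 guide. Both knockouts lay below both controls (log2 difference -1.40, SE 0.473, adjusted p 0.173 in limma), but the vector control was nearer to the exon 2 knockout than to the parental line.

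The vector control and the parental line differed in many of these genes. The control gap was larger than the difference between groups in 8 members (44.4%, against 47.1% of all tested genes). On the log2(RPKM + 1) scale, at least a 2-fold difference between the 2 controls was found in 8 of the 18 members (44.4%), against 8.53% of all tested genes. All 8 were lower in vector control cells, against 5.19% of all tested genes lower and 3.34% higher. In plain RPKM ratios 9 members were 2-fold lower in vector control cells, Adamts5 being the one added, and 0 were higher, against 6.77% and 5.12% of all tested genes. With 1 library each, this difference has no replicate check. Mmp19, a secreted enzyme that acts on basement membrane proteins, was at 40.5 RPKM in parental cells and 1.39 in vector control cells, a ratio of 29.1 (95% exact interval 22.3 to 38.7, counting error only), and at 7.37 and 6.80 with the exon 3 and exon 2 guides. The knockouts were close to each other and lay between the controls.

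Adamts2, which removes the N-terminal propeptide of fibrillar procollagens, followed the same pattern as Mmp19. It was at 14.4 RPKM in parental cells, 0.357 in vector control cells, 6.47 with the exon 3 guide and 5.59 with the exon 2 guide, a ratio of the parental line to the vector control of 40.3 (28.7 to 58.4). Adamts14, a procollagen N-propeptidase of the same subgroup, was at 31.1, 13.995, 22.8 and 16.3 RPKM in the same order. For both genes the parental line was highest and the vector control lowest. The remaining enzyme of this subgroup, Adamts3, was below 0.27 RPKM in all libraries. Their substrate Col1a1, named here, like Col1a2, after its values were seen, was at 670.3 RPKM in parental cells, 6.93 in vector control cells, 54.3 with the exon 3 guide and 24.2 with the exon 2 guide. Col1a2 had the same order, at 807.8, 148.6, 297 and 194.5 RPKM, and Col3a1 did not, at 133.4, 57.9, 15.2 and 23.9 RPKM, with both knockouts below both controls.

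Mmp23, a membrane-bound enzyme without the hemopexin domain of most Mmp proteins, was at 5.37 RPKM in parental cells on 212 reads and at 0.0312 in vector control cells on 1 read, a ratio of 172 with a wide interval of 30.6 to 6840. In the knockouts it was at 2.90 (exon 3, 86 reads) and 0.775 (exon 2, 22 reads). Adamts10, tied to fibrillin microfibrils, was at 7.76 RPKM in parental cells, 1.79 in vector control cells, 4.61 with the exon 3 guide and 3.74 with the exon 2 guide. In Mmp19, Adamts2, Adamts14, Mmp23 and Adamts10 both knockouts thus lay between the 2 controls. The summed RPKM of the mesenchymal markers was 4100 in parental cells, 2390 in vector control cells, 1842 with the exon 3 guide and 2116 with the exon 2 guide. The knockouts were lowest in this sum, of which Vim was the largest part in each library. The luminal markers summed to 129.8 RPKM, 34.3, 107 and 74.7 in the same order, and the basal markers to 48.99, 2.46, 19.97 and 33.4. In both epithelial sums, as in these 5 genes, the parental line was highest, the vector control lowest and the knockouts lay between. The basal sum was nearly all Cdh3, at 48.8 RPKM in parental cells. Cdh3 and Krt18 had this order, but Krt8 was highest with the exon 3 guide (78.9 RPKM, against 69.0 in parental cells). Epcam, at most 0.657 RPKM, was higher in both knockouts than in both controls. Of the mesenchymal markers, Vim, Zeb1, Zeb2 and Twist1 were lower in both knockouts than in both controls. Col1a1, Col1a2 and Pdgfrb were instead lowest in vector control cells, at 6.93, 148.6 and 56.8 RPKM. Cdh2 was highest with the exon 2 guide, at 49.4 RPKM. The part of these markers, and of Fabp4, in the differences was not tested.

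**Figure D3:**
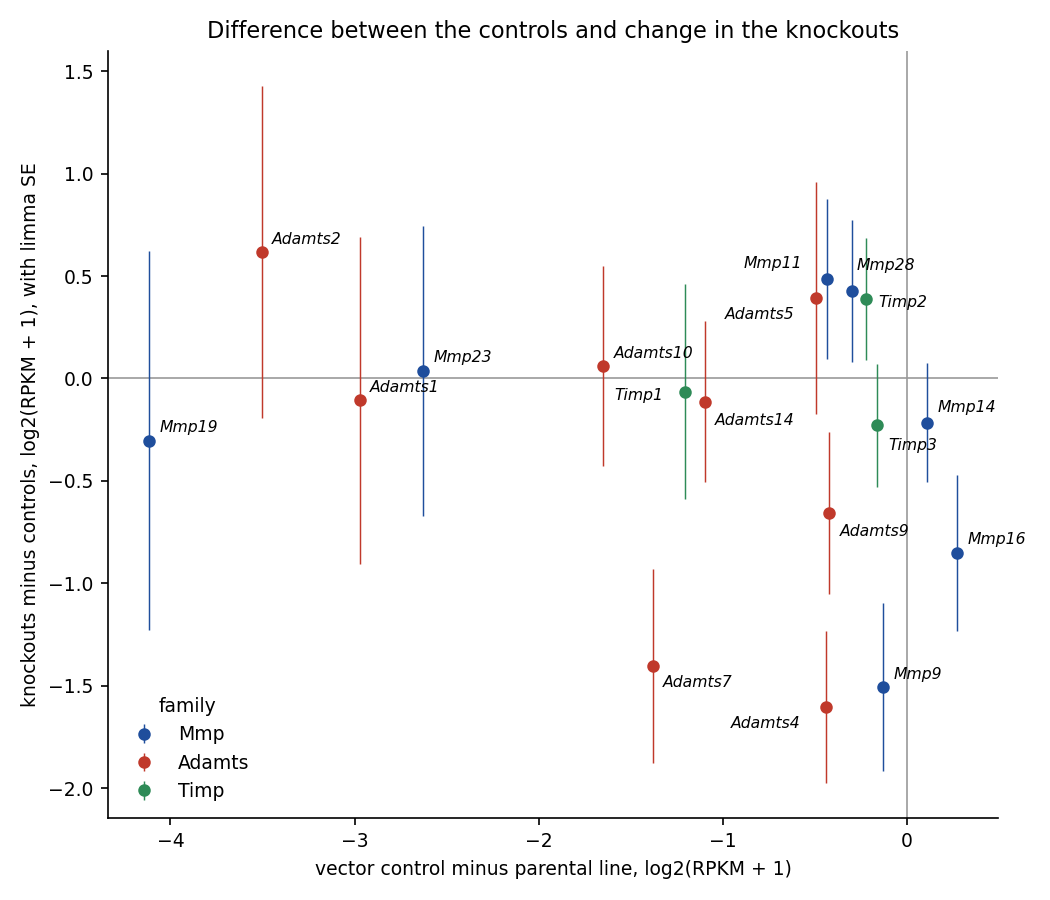
Each point is 1 of the 18 members, coloured by family; the horizontal axis gives the vector control minus the parental line and the vertical axis the knockouts minus the controls, both in log2(RPKM + 1), with bars for the limma SE. The 8 members left of -1 on the horizontal axis have SE from 0.393 to 0.924, and Adamts4, Mmp9 and Mmp16 combine controls within 0.44 of each other with values of -0.85 or lower on the vertical axis.

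Adamts1 and Timp1 had another arrangement, in which the parental line went with the exon 2 knockout. Adamts1, a proteoglycan-cutting enzyme that is also known to restrain vessel growth, was at 109 RPKM in parental cells, 13.1 in vector control cells, 17.9 with the exon 3 guide and 69.6 with the exon 2 guide. The vector control and the exon 3 knockout were both low and the other 2 both high, so the group difference was small against its error (-0.11, SE 0.798, adjusted p 0.960 in limma). Between the knockouts the exon 2 line had 3.88 times the exon 3 value (3.64 to 4.14, counting error only) for Adamts1, 3.29 times (3.07 to 3.53) for Timp1 and 13.9 times (8.63 to 23.9) for Adamts5. On the log2(RPKM + 1) scale, at least 2-fold differences between the knockouts were found in 4 members (22.2%, against 4.99% of all tested genes). The 3 genes just given were at least 2-fold higher with the exon 2 guide (16.7%, against 2.57% of all tested genes), and Mmp23 was the 1 member at least 2-fold lower (5.56%, against 2.43%). In plain RPKM ratios 5 members were 2-fold higher with the exon 2 guide, with Adamts7 and Adamts9 added, against 5.6% of all tested genes. Likewise 3 were 2-fold lower, with Mmp9 and Mmp11 added, against 4.25%. Adamts1 and Adamts5 are neighbours on chromosome 16, from 85793827 to 85803113 and from 85856173 to 85901828 (GRCm38, both on the minus strand).

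Since the controls were so far apart, the knockouts were also set against each control alone. With 1 control library the spread between controls is not measured, so only log2 differences are given. Against the parental line alone, without the vector control, the 5 lowest differences were those of Mmp19 (-2.36), Adamts7 (-2.09), Adamts4 (-1.82), Adamts1 (-1.59) and Mmp9 (-1.57). Against the vector control alone, the differences of Adamts2 (2.37), Mmp19 (1.76) and Adamts1 (1.38) were the highest. Those of Mmp9 (-1.44) and Adamts4 (-1.38) were the lowest. Mmp9, Adamts4 and Adamts7 (-0.71 against the vector control) were lower in the knockouts against either control. Mmp19, Adamts1 and Adamts2 (-1.13 against the parental line) were lower against the parental line and higher against the vector control. The median difference of the 18 members was -0.74 against the parental line and 0.52 against the vector control, where that of all tested genes was -0.04 and -0.13. Both comparisons use the same 2 knockout libraries, and these fits called 451 (4.15%) and 788 (7.25%) of all tested genes.

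The remaining tested members were Mmp11 and Mmp28. Mmp11 (stromelysin-3), which is activated inside the cell by furin, was at 8.18 RPKM in parental cells, 5.80 in vector control cells, 14.5 with the exon 3 guide and 6.92 with the exon 2 guide. The exon 3 knockout was highest and the exon 2 knockout lay between the controls. Mmp28 (epilysin) was at 4.32, 3.34, 5.92 and 5.05 RPKM in the same order of libraries, with both knockouts above both controls by 0.43 on the log2 scale (SE 0.346, adjusted p 0.512 in limma), a difference of 0.11 after the GC content and length correction.

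A cluster of 10 Mmp genes on chromosome 9 held the other Mmp gene that the study picked, Mmp3. The cluster spans 7272514 to 7699585 (GRCm38), in the order Mmp13, Mmp12, Mmp1b, Mmp3, Mmp1a, Mmp10, Mmp8, Mmp27, Mmp20 and Mmp7, and it includes collagenases, stromelysins, the matrilysin Mmp7 and the enamel protease Mmp20. All 10 had mean RPKM below 1. For 4 genes of the cluster with reads, a stretch of 30 bases before the start site is given, because these stretches share the letters TGANTCA, the site pattern of AP-1 (Fos and Jun) factors, in capitals. The sequences are from RefSeq (GRCm38.p6, plus strand), 5′ to 3′.
Mmp3, chr9:7445765-7445794: ggaagcaattaTGAGTCAgttttcgggtga
Mmp10, chr9:7502268-7502297: tagcacccatgTGAGTCAtgcttagtgacc
Mmp13, chr9:7272468-7272497: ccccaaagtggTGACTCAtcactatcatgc
Mmp12, chr9:7347319-7347348: gacatcaacagTGAGTCAgatagaggattt

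The pattern, which reads the same on both strands, was searched from 250 bases before to 50 bases after each RefSeq start site. It was found in 8 of the 32 members with such a window, and all 8 belong to this cluster (Mmp13, Mmp12, Mmp1b, Mmp3, Mmp1a, Mmp10, Mmp20 and Mmp7, with Mmp12 and Mmp7 holding it at 1 of their 2 listed starts). Over all genes, 8.97% of 27025 held it (7.81% of 32851 windows). Its first base lay 46 bases before the start in Mmp3, 63 in Mmp10, 35 in Mmp13 and 44 in Mmp12. None of the 11 tested members with a window had it. For 14 members no window was listed, among them Adamts4, Mmp9, Adamts7 and Mmp16, so these were not searched. The match describes letters only.

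Reads in this cluster were fewer in both knockouts. Mmp3 (stromelysin-1) had 70 reads in parental cells (1.56 RPKM), 31 in vector control cells (0.848 RPKM), 0 with the exon 3 guide and 16 with the exon 2 guide (0.494 RPKM). A count of 0 with the exon 3 guide allows up to 0.0887 RPKM (3 reads), and the vector control value was 9.55 times this limit, with the counting error of its 31 reads not included. Mmp10 (stromelysin-2) had 27 and 39 reads in the 2 controls (parental first) and 4 and 11 with the exon 3 and exon 2 guides. Mmp13 (collagenase-3) had 10 and 18 reads in the controls and 5 and 3 in the knockouts in the same order. Mmp12 and Mmp1b had between 0 and 3 reads in each library, and Mmp1a, Mmp7, Mmp8, Mmp20 and Mmp27 had none. Over the 10 genes there were 112 reads in parental cells (3.59 RPM, reads scaled to the library total, 95% exact Poisson interval 2.95 to 4.31) and 89 in vector control cells (3.504, 2.81 to 4.31). There were 9 with the exon 3 guide (0.383, 0.175 to 0.728) and 30 with the exon 2 guide (1.33, 0.901 to 1.91). The intervals of the controls overlapped, and those of both knockouts lay below them. The sum was taken after the values of its members were seen, covers counting error only and was given no test.

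**Figure D4:**
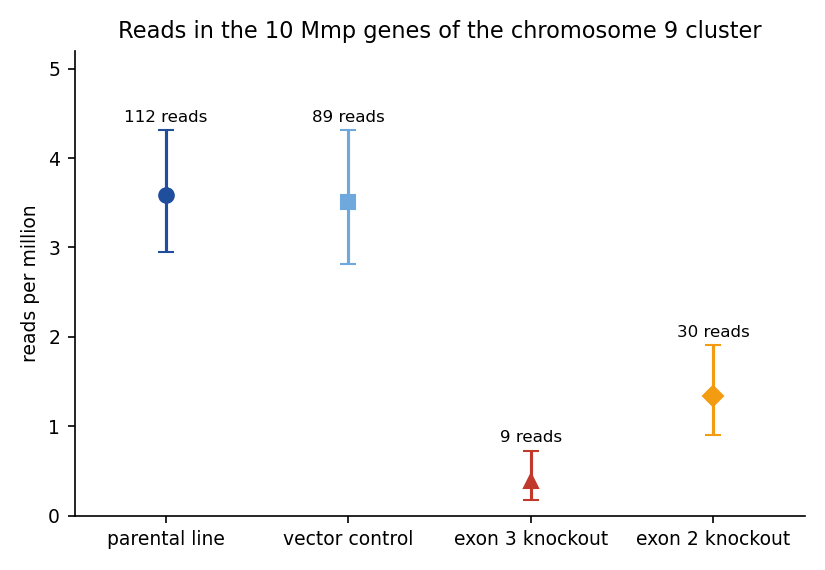
RPM (reads scaled to the library total; vertical axis, from 0) summed over the 10 Mmp genes of the chromosome 9 cluster in each library, with bars for the 95% exact Poisson interval, which covers counting error only, and the number of reads above each. Both controls, at 3.59 and 3.504, sit above both knockouts, at 0.383 and 1.33.

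The other members with mean RPKM below 1 were seen on few reads. Mmp17, a membrane-type enzyme with a lipid anchor, just missed the filter at 1.11 RPKM in parental cells, 0.431 in vector control cells, 1.13 with the exon 3 guide and 1.31 with the exon 2 guide. Adamts6 was at 0.850, 1.84, 0.419 and 0.796 RPKM in the same order, and Adamts12, the closest relative of Adamts7, at 1.36, 0.655, 0.505 and 0.500. In Adamts6 and Adamts12 both knockouts lay below both controls, and in Mmp17 both lay above. Adamts3, Adamts17, Mmp15 and Mmp25 had between 1 and 26 reads in each library. Adamts8, Adamts13, Adamts19, Adamts20 and Mmp24 had at most 3 reads in any library, and Adamts15, Adamts16, Adamts18 and Mmp21 had none. Of the 18 members above 0 with mean RPKM below 1, both knockouts were below both controls in 7 and above in 1, where 21.6% and 7.37% of all 4534 genes in this range were.

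Partners of these enzymes were compared from lists of activators, inhibitors, relatives, substrates and inducers. Of the 14 genes tied to proenzyme activation 7 were tested, and 0 had an unadjusted p under 0.05. The largest differences were 0.34 for the lysosomal protease Ctsb and 0.13 for Furin, and -0.45 for the plasminogen activator Plat and -0.39 for Plau. Of 16 other inhibitors and clearance genes 9 were tested, with 0 at that level. There Pcolce, which enhances procollagen processing, was at 0.75 and Thbs2 at 1.03, and Tfpi2 was at -0.71 and the clearance receptor Lrp1 at -0.69.

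Over all tested genes, 13.8% were lower and 5.32% higher at an unadjusted p under 0.05. Of 21 ADAM, ADAMTS-like and astacin relatives 12 were tested, of which 4 were lower and 1 higher at an unadjusted p under 0.05, with 0 at an adjusted p under 0.05 in limma. The median was -0.99 on the log2 scale, against -0.08 over all tested genes. Adam17, the main sheddase of tumor necrosis factor and a target of Timp3, was at 34.9 RPKM in parental cells, 43.0 in vector control cells, 13.8 with the exon 3 guide and 16.7 with the exon 2 guide (-1.30, SE 0.311, adjusted p 0.105 in limma). Adam22 was at -1.33, with 15.04 RPKM in vector control cells and 0.980, 1.28 and 1.22 in parental cells and with the exon 3 and exon 2 guides, so its difference rests on the vector control. Adamtsl5 was at 1.08 and Adam15 at 0.54. Of 20 substrates 13 were tested, of which Bgn (biglycan) fell by 4.27 on the log2 scale (SE 0.466, adjusted p 0.0133 in limma), and 4 including it were lower and 0 higher at an unadjusted p under 0.05. Col3a1 was at -2.14, Fn1 (fibronectin) at 0.25 and Dcn (decorin) at 0.01. Of 24 inducers and surface partners 20 were tested, with 5 lower and 0 higher at that level and 0 at an adjusted p under 0.05 in limma. Hif1a was at -1.81 and Tgfb2 at -1.21, and Ets2 was at 0.60 and Lcn2, which binds Mmp9, at 0.80. The study picked Bgn, Col3a1, Hif1a, Tgfb2, Jun and Etv1 from these libraries, so these counts are no independent evidence.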

How the data were processed

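The authors deposited RPKM values, 1 column per library, with no log scale; GSNAP, CASAVA 1.8 and GRCm38 are named in the submitters' processing notes, and the gene model and counting rule are not given in the sources used here. Columns without a sample numbered 0. RPKM steps gave whole reads (tolerance 0.001) for 100% of the 15405 genes above 0. The length of each gene was chosen as the multiple nearest its coding length in GENCODE M21. The median ratio of 1 between them is therefore no check of these lengths. Of 10776 genes compared, 40.3% had exactly the annotated length. The library totals were set from the same annotation. The absolute number of reads rests on those lengths. Genes with mean RPKM of at least 1 (10871) were tested as log2(RPKM + 1) by limma (version 3.58.1, R 4.3.3) with an intensity trend, knockouts against controls, without covariates, with Benjamini-Hochberg adjustment over all tested genes and a threshold of 0.05. A log2 difference understates the change of low genes. The test was checked on simulated data. No p is given for sums over members, for which a permutation test had been planned. Edits at the guide sites were not analysed here. Wilson, exact Poisson and exact (Clopper-Pearson) ratio intervals used scipy 1.17.1. Nothing says that libraries came from separate cultures, so p-values measure only the spread between these lines.

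All members with mean RPKM of at least 1 are named, as are Mmp3, members below the filter by counts, and from each partner list the genes past the threshold and the 2 with the highest and 2 with the lowest log2 differences. Members, lists and tests were chosen with earlier results of these data known. Alternatives were a 3-fold threshold, a pseudocount of 0.1, scaling by median ratios or quantiles, testing all genes above 0 or only those with mean RPKM of at least 5, correcting for GC content and length, robust or trend-free limma, sums without the leading member and leaving out each library. limma with voom on the recovered reads and counts by plain RPKM ratios were added after seeing the data. 1 result on an overlap between genes is not reported here.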

Additional observations from a re-analysis of the deposited data

Results flagged for a closer look

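Timp1 and Adamts5 were singled out because the exon 3 and exon 2 knockouts lay on opposite sides of both controls. The log2 ratio of the exon 2 over the exon 3 knockout was 1.71 for Timp1 and 1.92 for Adamts5 on the log2(RPKM + 1) scale. Each knockout has 1 library, so the difference was not tested. Among all tested genes, 7.88% were arranged in this way.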

How the results depend on the processing

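Of 226 values that the 18 members took under the alternatives, 17 changed sign. The 10 members without a sign change include Adamts4 (-1.97 to -1.23), Mmp9 (-3.15 to -1.10), Adamts7 (-2.09 to -0.71) and Mmp16 (-1.46 to -0.46). Median ratio scaling and quantile normalization moved the median of all genes from -0.08 to 0.02 and 0.04. Leaving out 1 library at a time gave 0 to 5 members at an adjusted p under 0.05 in limma, 2 to 8 lower and 0 to 4 higher at an unadjusted p under 0.05, 7 to 13 below both controls, 2 to 9 above both, and 2 to 5 lower and 0 to 2 higher by 2-fold in all pairs. The highest counts of lower members came without the vector control and those of higher members without the parental line. With a control left out, both controls here means the remaining control, and all pairs means the remaining pairs. The 13 members thus lay below the parental line alone, and the 9 lay above the vector control alone. Dropping a library loosens these conditions, so such counts cannot fall below those with all libraries. With all libraries, 7 members lay below both controls and 2 above both. A robust prior gave 2 members at an adjusted p under 0.05 in limma, where 285 of all tested genes passed. Quantile normalization gave 2 members lower at an unadjusted p under 0.05 in limma, against 8.68% of all tested genes, and 1 higher. It also gave 1 above both controls, 0 lower by 2-fold in all pairs and 2 lower in the exon 2 than the exon 3 knockout. With a filter at mean RPKM of 5, 10 members were tested and 1 was lower at an unadjusted p under 0.05 in limma. Of all 8710 genes tested there, 13.5% were lower at that level. In this setting 3 members lay below both controls, 1 above both and 1 was lower by 2-fold in all pairs. With no filter 14 lay below both controls, and after the GC content and length correction 1 lay above both. For the other counts under these settings, the share over all genes was not computed. Median ratio scaling left 0 lower by 2-fold in all pairs. At 3-fold, 0 were lower in all pairs, 5 were lower in the vector control than the parental line and 0 were lower in the exon 2 than the exon 3 knockout, a count that was 3 with a pseudocount of 0.1. Plain RPKM ratios gave 5 members higher and 3 lower in the exon 2 than the exon 3 knockout. Median ratio scaling turned Timp1 to 0.049 and Adamts1 to 0.001, and the GC content and length correction turned Adamts10 to -0.051 and Mmp23 to -0.27. Leaving out 1 library gave Timp1 -0.92 to 0.79, Adamts1 -1.59 to 1.38, Adamts14 -0.66 to 0.44, Mmp19 -2.36 to 1.76, Adamts2 -1.13 to 2.37, Adamts10 -0.76 to 0.89, Mmp23 -1.28 to 1.3515 and Adamts5 -0.57 to 1.3536. Apart from the left-out libraries, the cause was not tested. No paired analysis was possible because the labels give no replicate numbers. Low read counts limit the members with mean RPKM below 1.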
